A study of Homo sapiens with 24 samples.

Results

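The 4 libraries described here are the vehicle cultures of OVCAR8, an established human ovarian cancer cell line, which had received dimethyl sulfoxide (DMSO) and no drug for 5 days or for 3 days before RNA was taken. They are 4 of 24 RNA sequencing libraries of a study of EPZ015666, which blocks PRMT5, an enzyme that methylates arginines. Day 5 and day 3 each held 2 libraries, named A and B, and all genes of the table were considered. Each DMSO group served as the control for 5 µM EPZ015666 at its own day, so the comparison of both days shows what time under vehicle changed with no drug present. The same pair of days was sequenced under EPZ015666 in OVCAR8 and under DMSO in BT549, an established human breast cancer line, again with 2 libraries a group. Those libraries are used below to ask where the vehicle cultures of OVCAR8 differed. The sources used here do not mention replating, medium changes or cell density, so time under DMSO, density and the age of the medium cannot be told apart. Nothing in the labels shows that A and B were grown apart, so the p-values measure only how 2 libraries of a group differ, a spread that may be technical.

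A growing culture uses up glucose, amino acids and growth factors of its medium, covers more of the dish and collects what its cells secrete. Several transcription programmes are known to read these conditions. MondoA follows glucose phosphates, the ERK pathway follows growth factors, YAP with TEAD factors follows cell spreading and contact, FOXO factors act when growth factor signalling falls, and STAT3 and NF-kB answer secreted cytokines. This is background, and none of these activities was measured here.

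Values are RPKM (reads scaled to gene length and library size) as computed by the authors, and changes are log2(RPKM + 1) at day 5 minus day 3 with the SE from limma, which understates the change of low genes. The lengths in these RPKM values were whole gene spans with introns, so a gene with long introns has a low RPKM. For such genes reads were recovered from the RPKM values and are given as CPM (reads scaled to library size). An adjusted p is a Benjamini-Hochberg value from limma over all genes tested, with a threshold of 0.05. The 4 libraries held 23.88 M and 30.12 M recovered reads at day 5, against 28.98 M and 25.36 M at day 3. Genes of the ribosomal RNA locus took 0.32% and 0.285% of the reads at day 5, against 0.799% and 0.245% at day 3, so library A of day 3 stood above the others, and in the whole line only library B of EPZ015666 at day 5 was higher, at 4.543%. These 2 are called the libraries highest in ribosomal RNA below, also in comparisons with BT549, although the name covers OVCAR8 only. In BT549, library A of EPZ015666 at day 3 had 1.388% and was kept when these 2 were left out. A list's count of calls in RPKM that moved by more than 1.5 times without both OVCAR8 libraries is given with that value.

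The labelled cell type was checked on 17 markers, of which 15 were in the table. MSLN, KRT7, KRT8, KRT18 and VIM exceeded 1 RPKM. EPCAM and CDH2 lay between 0.49 and 0.635 RPKM. PAX8 and WT1, which mark many serous ovarian carcinomas, lay between 0.037 and 0.073 RPKM, EMX2 was listed at 0 in every library, and MUC16 did not exceed 0.000509 RPKM. CDH6 and MECOM did not exceed 0.00174 and 0.0364 RPKM. KRT19 had 0.0351 RPKM in library A of day 5 and SOX17 0.0111 RPKM in library B of day 5, and both were at 0 elsewhere. CDH1 and FOLR1 were not in the table. Since these values divide by gene spans with introns, a level above 0 but under 1 RPKM does not show that a marker was absent. Gene span does not account for a level of 0, at which no reads were counted. The summed level of these 15 genes was 395 and 399 RPKM at day 5, against 376 and 380 RPKM at day 3. Immune and endothelial markers were low at both days, with sums of 1.22 and 1.13 RPKM at day 5, against 1.07 and 0.824 RPKM at day 3, for 2 immune genes, and at most 0.0234 RPKM for 3 endothelial genes. Of 5 fibroblast markers in the table, with sums of 51 and 53.4 RPKM at day 5, against 53.1 and 54.7 RPKM at day 3, COL1A1 had 49 and 51.5 RPKM at day 5, against 51.7 and 53.3 RPKM at day 3, and COL1A2 and COL3A1 stayed at or under 0.00439 RPKM. PDGFRB, a growth factor receptor in the same set of markers, rose, with 1.87 RPKM in both day 5 libraries, against 1.25 and 1.31 RPKM at day 3 (log2 change 0.33, limma adjusted p = 0.00104). The part of other cells in the results was not tested.

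Time under vehicle moved many genes by small amounts. Of 6328 genes tested, 1313 (20.7%) rose and 1009 (15.9%) fell, and the middle of the distribution lay at 0.02 log2 with quartiles at -0.08 and 0.13. Only 14 genes rose at least 2-fold in RPKM, and 6 fell to 0.5-fold or less. Without library A of day 3 the counts were 728 higher and 450 lower, without library B of day 3 they were 690 and 511, and without library A of day 5 they were 863 and 587. Without library A of day 3 and library B of EPZ015666 at day 5, which enters the fit through the shared spread, they were 361 higher and 188 lower. Of the 64 counts of called genes above 0 in the gene lists below, 38 shrank by more than 1.5 times without library A of day 3, 30 without library B of day 3, 25 without library A of day 5, 14 without library B of day 5 and 53 without both libraries highest in ribosomal RNA. The shares of 20.7% and 15.9% belong to the full fit. They are not the measure for a list's count with libraries left out, since fewer of all genes were then called. By recovered reads, 12457 genes could be tested, of which 2347 (18.8%) rose and 2279 (18.3%) fell, 42 of them by at least 2-fold upward and 30 to 0.5-fold or less. Of the genes called in RPKM, 2225 were also called by reads in the same direction and 0 in the opposite one. On the first principal component of the 8 OVCAR8 libraries, which held 53.6% of the variance, day 5 stood at -14.1 and -14.3, against -4.4 and -5.36 for day 3, while the 4 EPZ015666 libraries lay between 8.38 and 10.3.

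**Figure D1:**
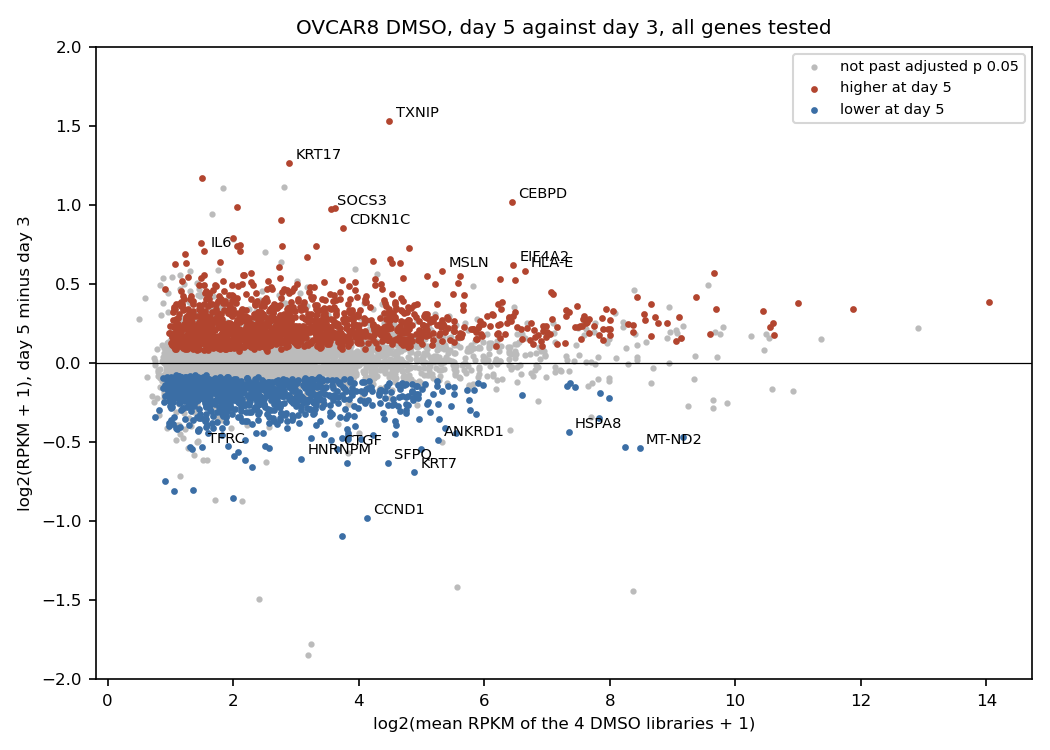
Change of each of the 6328 tested genes from day 3 to day 5 under DMSO in log2(RPKM + 1), against log2(RPKM + 1) of the mean of the 4 libraries, with genes past an adjusted p of 0.05 coloured. The quartiles of all points lie at -0.08 and 0.13, and TXNIP at 1.53 and CCND1 at -0.98 stand at the outer ends among the labelled genes.

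The largest rise by the rule for named genes was that of TXNIP, which encodes the thioredoxin-interacting protein, a brake on glucose uptake and a classic reporter of glucose in the cell. TXNIP (ENSG00000265972.5, chromosome 1 from 145992435 to 145996600 in GRCh38) had 32.5 and 32.3 RPKM at day 5, against 9.85 and 11.3 RPKM at day 3. Both day 5 libraries lay far above both day 3 libraries, at 3.07-fold (log2 change 1.53 ± 0.075, limma adjusted p = 0.000442). The stretch of its promoter shown here carries the carbohydrate response element, the pair of CACGNG boxes 5 bases apart that MondoA and its relative ChREBP bind, with the element in capitals. It is given 5′ to 3′ from RefSeq on GRCh38.p14, chr1:145996636-145996682 on the minus strand, and the element begins 88 bases before the annotated start.
TXNIP: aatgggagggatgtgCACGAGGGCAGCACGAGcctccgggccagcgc
This pattern, searched on both strands, occurs in 16 of 35116 RefSeq promoter windows (0.0456%), counted over the 250 bases before the start. Of 4 glucose-responsive genes matched to that table, TXNIP alone holds it. Of the 4 genes of that list tested in RPKM, 2 rose, where 20.7% of all genes did, and 1 rose without the libraries highest in ribosomal RNA. The relative ARRDC3 had 1.34 and 1.44 RPKM at day 5, against 0.922 and 0.993 RPKM at day 3 (log2 change 0.29 ± 0.040, limma adjusted p = 0.00376). ARRDC4, a low gene tested only by reads, had 10.4 and 9.98 CPM at day 5, against 7.12 and 7.75 CPM at day 3, with a limma-voom adjusted p of 0.0058. MLXIP, which encodes MondoA itself, was at 0.946-fold and did not pass (adjusted p = 0.248).

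Genes of glucose use moved in both directions, in shares near those over all genes. Of 18 glycolysis and hypoxia genes tested, 3 rose and 4 fell, against 20.7% and 15.9% over all genes, with a median of -0.003 log2. Without the libraries highest in ribosomal RNA 2 rose and 1 fell. SLC2A3, a high-affinity glucose transporter, had 3.37 and 3.41 RPKM at day 5, against 2.12 and 2.4 RPKM at day 3 (1.5-fold). ADM, the hypoxia-induced peptide adrenomedullin, had 9.16 and 8.55 RPKM at day 5, against 13.2 and 12.5 RPKM at day 3 (0.69-fold). LDHA, lactate dehydrogenase A, was at 0.941-fold and did not pass the test (adjusted p = 0.0962).

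A group of genes tied to cytokine signalling stood among the largest rises. CEBPD, a transcription factor that STAT3 is known to induce, had 113 and 118 RPKM at day 5, against 54.3 and 58.6 RPKM at day 3 (log2 change 1.02 ± 0.050, limma adjusted p = 0.000442). SOCS3, the feedback inhibitor of the same receptors, had 14 and 15.1 RPKM at day 5, against 6.57 and 7.26 RPKM at day 3 (0.98 ± 0.054). BCL3, a nuclear partner of NF-kB p50 and p52, had 4.13 and 4.35 RPKM at day 5, against 2.11 and 2.16 RPKM at day 3 (0.74 ± 0.042). For each of these genes the groups were separated by more than the distance between their own libraries. These genes were picked by their changes, so the separation lends no added weight. IL6, the ligand that signals to STAT3 through gp130, was low but moved with them, at 2.44 and 2.77 RPKM at day 5, against 1.17 and 1.23 RPKM at day 3 (0.71 ± 0.051, limma adjusted p = 0.000934). Of 11 STAT3 pathway genes tested, 8 rose and 0 fell, against 20.7% and 15.9% over all genes, with a median of 0.30 log2. The list was written after these values were seen and therefore lends the direction no independent weight. The receptor gene OSMR rose 1.16-fold, a call that was lost without library A of day 3, and STAT3 itself 1.19-fold, while neither JAK1 nor LIF passed the test.

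NF-kB targets and cytokines showed 4 of 7 tested genes higher and 0 lower, against 20.7% and 15.9% over all genes, with a median of 0.37 log2 and 4 calls without the libraries highest in ribosomal RNA. ICAM1, an adhesion receptor for leukocytes, had 2.27 and 2.26 RPKM at day 5, against 1.52 and 1.51 RPKM at day 3. NFKB2 and NFKBIA, the precursor of p52 and the inhibitor of NF-kB, rose 1.35-fold and 1.44-fold. IL32, a cytokine gene outside this list, had 11.3 and 11.8 RPKM at day 5, against 6.44 and 6.59 RPKM at day 3. By recovered reads, where 18.8% of all genes rose, 7 of 15 genes of the list rose and 0 fell, among them IL1B at 1.68-fold and TNFAIP3 at 1.66-fold.

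Most genes of class I antigen presentation rose. Of 12 tested genes 11 rose and 0 fell, against 20.7% and 15.9% over all genes, with a median of 0.41 log2. All 12 had both day 5 libraries above both day 3 libraries, as did 2565 of all 6328 genes tested. Without the libraries highest in ribosomal RNA 7 of the 12 were called. HLA-E, which presents signal peptides to natural killer cells, had 120 and 119 RPKM at day 5, against 78.2 and 79.9 RPKM at day 3 (log2 change 0.58 ± 0.032, limma adjusted p = 0.000481). HLA-B and HLA-C, classical class I heavy chains, rose 1.48-fold and 1.43-fold, and B2M, their light chain, rose 1.48-fold. Reads of these similar genes, and of the pseudogene HLA-H, outside the list, at 1.6-fold, may be split among copies. Of 12 interferon-stimulated genes 6 rose and 0 fell, where 20.7% of all genes rose, with a median of 0.21 log2 and 2 calls without those libraries. IFITM2, which keeps viruses from fusing, had 57.5 RPKM in both day 5 libraries, against 38.6 and 39.3 RPKM at day 3.

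CCND1, the gene of cyclin D1, was among the largest falls by the same rule. It had 10.5 and 11 RPKM at day 5, against 22.8 and 21.7 RPKM at day 3, which is 0.483-fold (log2 change -0.98 ± 0.044, limma adjusted p = 0.000442). CCND1 lies on chromosome 11 from 69641087 to 69654474, and MYEOV, a neighbour in the same band from 69294138 to 69367726, had the largest fall among the genes named by reads, with 24 and 22.5 CPM at day 5, against 66.2 and 65.1 CPM at day 3 (0.354-fold). Genes known as outputs of ERK signalling were lower as well. ETV5, an ETS factor induced by ERK, had 21.1 and 25.1 CPM at day 5, against 55 and 56.1 CPM at day 3, and its relative ETV1, outside the list below, had 6.35 and 8.89 CPM at day 5, against 17.6 and 16.7 CPM at day 3. EPHA2, an ephrin receptor, had 3.28 and 3.48 RPKM at day 5, against 4.92 and 5.01 RPKM at day 3. PHLDA1, a feedback gene of receptor tyrosine kinases, fell to 0.65-fold and SPRY2, an inhibitor of the same receptors, to 0.824-fold. Of 4 ERK output genes tested in RPKM 4 fell, where 15.9% of all genes did, with a median of -0.465 log2, and by reads 8 of 9 fell, where 18.3% of all genes did, in a list written after the values were seen. EPHA4, a gene of that list that did not pass, had 3.05 and 3.28 CPM at day 5, against 3.3 and 2.82 CPM at day 3.

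Immediate early and AP-1 genes had 3 of 16 higher and 6 lower, against 20.7% and 15.9% over all genes. Without library A of day 3 the list had 0 higher and 5 lower, and without both libraries highest in ribosomal RNA 0 higher and 3 lower. DUSP5, a nuclear ERK phosphatase, had 1.7 and 1.82 RPKM at day 5, against 2.72 and 2.61 RPKM at day 3. FOSL1, an AP-1 subunit, had 9.7 and 10.6 RPKM at day 5, against 14.5 RPKM in both day 3 libraries. EGR1 fell to 0.718-fold. MYC went the other way, with 29.2 and 30.9 RPKM at day 5, against 25.1 and 25.6 RPKM at day 3 (log2 change 0.24 ± 0.045, limma adjusted p = 0.0101), a call that was lost without library A of day 3.

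**Figure D2:**
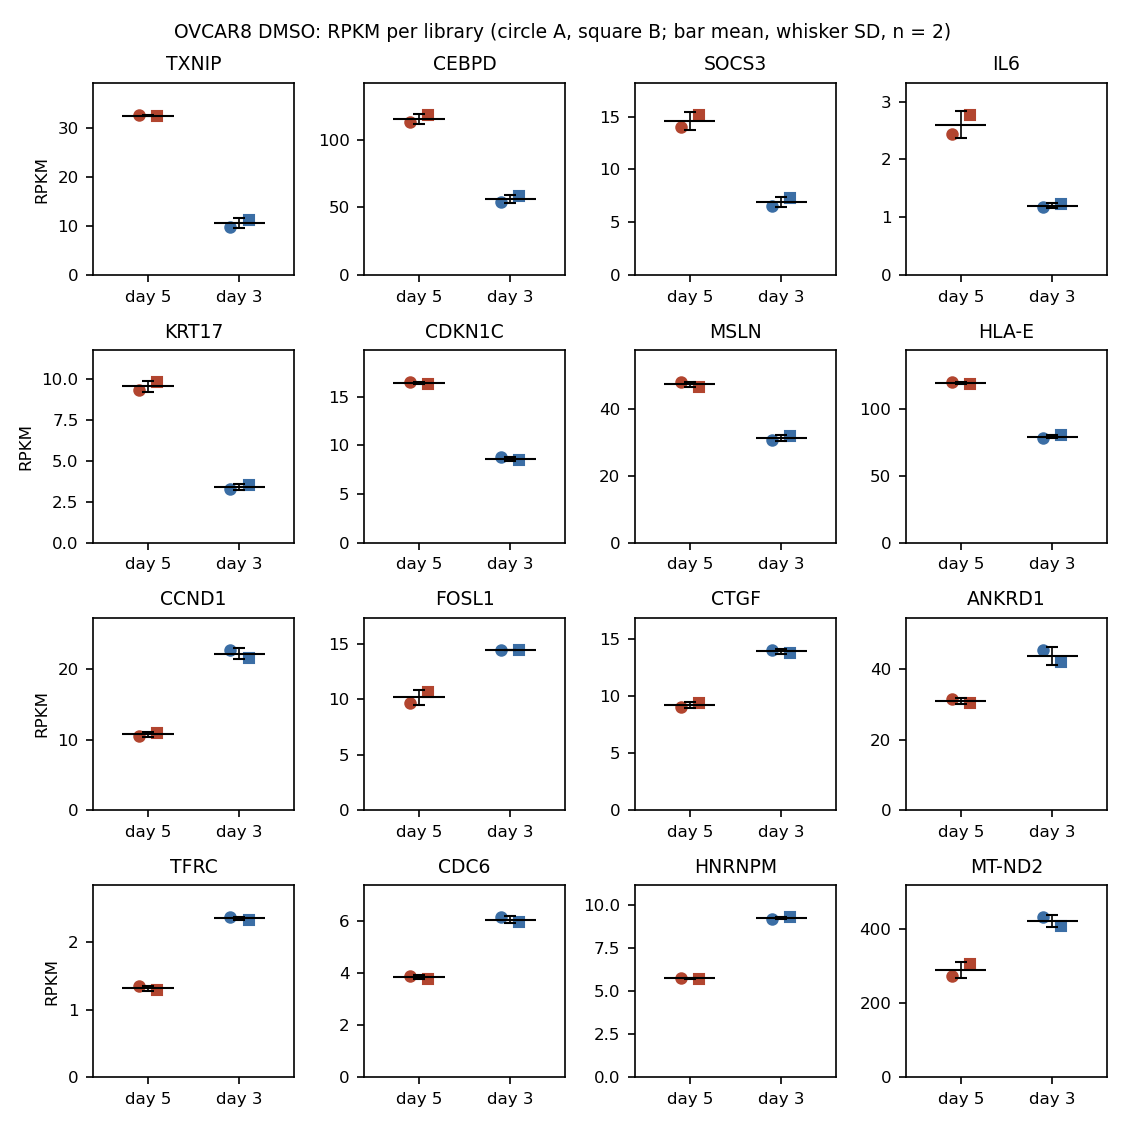
RPKM of 16 genes in each DMSO library of OVCAR8, with day 5 left of day 3, circles for library A, squares for library B, bars for the mean and whiskers for the SD of 2 libraries. The genes were picked with their changes known. In all 16 panels the points of day 5 do not overlap those of day 3, with TXNIP at 32.5 and 32.3 RPKM at day 5 and CCND1 at 22.8 and 21.7 RPKM at day 3.

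Targets of YAP and TEAD did not move as a block. Of 14 tested, 3 rose and 6 fell, against 20.7% and 15.9% over all genes, with a median of -0.08 log2. Without the libraries highest in ribosomal RNA 0 rose and 4 fell. Over all genes too fewer were called without these libraries. CTGF, a secreted matricellular protein, had 9.03 and 9.43 RPKM at day 5, against 14.1 and 13.8 RPKM at day 3 (log2 change -0.54 ± 0.037, limma adjusted p = 0.000934). ANKRD1, an ankyrin repeat protein of nucleus and sarcomere, had 31.4 and 30.4 RPKM at day 5, against 45.5 and 42 RPKM at day 3 (-0.49 ± 0.056). Both genes fell with a clear gap between the groups, but both were picked by the size of the change or its adjusted p. CYR61, a close relative of CTGF, had the highest RPKM of the 3 and lay the other way, with 553 and 566 RPKM at day 5, against 513 and 503 RPKM at day 3, a call that was lost when any of the 4 libraries was left out. The promoter stretches of the genes that fell are shown because they carry several copies of GGAATG, the core that TEAD factors bind, in capitals. They are given 5′ to 3′ from RefSeq on GRCh38.p14, at chr6:131951447-131951556 for CTGF, which RefSeq calls CCN2, and at chr10:90921195-90921322 for ANKRD1, both on the minus strand.
CTGF: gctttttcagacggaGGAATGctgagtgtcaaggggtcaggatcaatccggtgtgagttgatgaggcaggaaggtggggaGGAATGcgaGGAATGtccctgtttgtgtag
ANKRD1: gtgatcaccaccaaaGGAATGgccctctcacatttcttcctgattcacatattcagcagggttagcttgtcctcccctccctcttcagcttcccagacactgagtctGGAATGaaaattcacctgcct
The copies begin 169, 104 and 95 bases before the start of CTGF, and 220 and 128 bases before that of ANKRD1. On either strand GGAATG occurs in 11.9% of all RefSeq promoter windows, and at least 2 copies occur in 0.94%. It occurs in 6 of the 14 genes of the YAP list matched to that table. Among these is AMOTL2, which at 1.08-fold did not pass the test (adjusted p = 0.106).

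THBS1, the matrix protein thrombospondin 1, is named with the matrix genes and had 2.51 and 2.7 RPKM at day 5, against 4.65 and 4.39 RPKM at day 3 (0.576-fold). In the matrix and mesenchymal list 6 of 19 rose and 5 fell, against 20.7% and 15.9% over all genes, with COL6A2, a chain of collagen VI, at 1.36-fold. It had 5 higher and 2 lower without library A of day 3, and without both libraries highest in ribosomal RNA 2 higher and 2 lower. Keratins and surface antigens moved in both directions. KRT17, a keratin of stressed and basal epithelia, had 9.29 and 9.77 RPKM at day 5, against 3.26 and 3.52 RPKM at day 3 (log2 change 1.26 ± 0.068, limma adjusted p = 0.000479), although pseudogene copies of KRT17 exist and could share its reads. KRT7, a keratin of simple epithelia, had 21 and 22.1 RPKM at day 5, against 35.6 and 35.3 RPKM at day 3 (-0.69 ± 0.035). MSLN, the mesothelin antigen of ovarian cancers, had 48 and 46.7 RPKM at day 5, against 30.8 and 31.9 RPKM at day 3 (0.58 ± 0.055). CD24, a sialylated surface protein, rose 1.35-fold. KRT8 and KRT18, the partner keratins of simple epithelia, were at 0.939-fold and 1.03-fold and did not pass. Other large changes lay in signalling genes. FSTL3, a secreted inhibitor of activin, had 30.1 and 29.4 RPKM at day 5, against 18.5 and 19.1 RPKM at day 3 (log2 change 0.63 ± 0.035). RRAS, a small GTPase of the Ras family, had 21.6 and 22.2 RPKM at day 5, against 13.7 and 13.6 RPKM at day 3. In these genes too the libraries of each day lay close together and apart from the other day, but the rule for named genes already required no overlap.

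Genes of cell division were lower at day 5. Of 26 DNA replication genes tested, 15 fell and 0 rose, with a median of -0.15 log2, and of 36 mitosis genes 20 fell and 0 rose, with a median of -0.14 log2, where 15.9% of all genes fell. Leaving out library A of day 3 made these counts 9 and 10, and leaving out both libraries highest in ribosomal RNA made them 5 and 5, while the medians were -0.16 and -0.12 log2 in both cases. Over all genes too fewer were called in these fits, so the 15.9% of the full fit is not their measure. CDC6, which loads the replicative helicase, had 3.91 and 3.79 RPKM at day 5, against 6.16 and 5.96 RPKM at day 3 (0.636-fold). UHRF1, which keeps DNA methylation through replication, fell to 0.711-fold and MCM5, a helicase subunit, to 0.804-fold. CENPF, a kinetochore protein of late cell cycle, had 1.52 and 1.6 RPKM at day 5, against 2.44 and 2.52 RPKM at day 3 (0.629-fold). MKI67, the proliferation antigen, had 11.1 and 10.9 RPKM at day 5, against 14.5 and 16.3 RPKM at day 3 (log2 change -0.44 ± 0.053, limma adjusted p = 0.00266). The RNA of bulk cultures cannot tell fewer dividing cells from less RNA per dividing cell.

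Regulators of the G1 phase moved in both directions. CDKN1C, the inhibitor p57, had 16.5 and 16.3 RPKM at day 5, against 8.78 and 8.46 RPKM at day 3 (log2 change 0.85 ± 0.045, limma adjusted p = 0.000479). CDKN1A and CDKN1B, the inhibitors p21 and p27, rose 1.25-fold and 1.14-fold, and the call of CDKN1B was lost without library A or B of day 3 or library A of day 5. SKP2, the ligase subunit that degrades p27, fell to 0.763-fold. In the whole list 6 of 13 rose and 3 fell, against 20.7% and 15.9% over all genes. But 3 rose and 2 fell without library A of day 3, and 2 rose and 2 fell without both libraries highest in ribosomal RNA. Of 11 p53 targets tested 5 rose and 1 fell, or 3 and 0 without both libraries, with PHLDA3, an inhibitor of Akt, at 1.45-fold and CCNG1, cyclin G1, at 1.27-fold.

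Homologous recombination and Fanconi anaemia genes are long and mostly under the RPKM filter, so that 4 could be tested in RPKM and 22 by recovered reads. By reads 14 of the 22 fell and 0 rose, with a median of -0.33 log2, where 18.3% of all genes fell. BRIP1, a helicase partner of BRCA1, had 30.7 and 35.6 CPM at day 5, against 55.9 and 57.1 CPM at day 3 (0.587-fold). BRCA2, which works in the repair of double-strand breaks, had 14.3 and 18.1 CPM at day 5, against 27.4 and 30.1 CPM at day 3 (0.564-fold). FANCD2, the hub of the Fanconi pathway, had 18.1 and 18.8 CPM at day 5, against 27.4 and 28.9 CPM at day 3. BRCA1 itself had 19.2 and 20.2 CPM at day 5, against 22.8 and 21.8 CPM at day 3, and did not pass (limma-voom adjusted p = 0.109). DNA replication by reads had 25 of 34 genes lower and 1 higher, with a median of -0.28 log2.

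**Figure D3:**
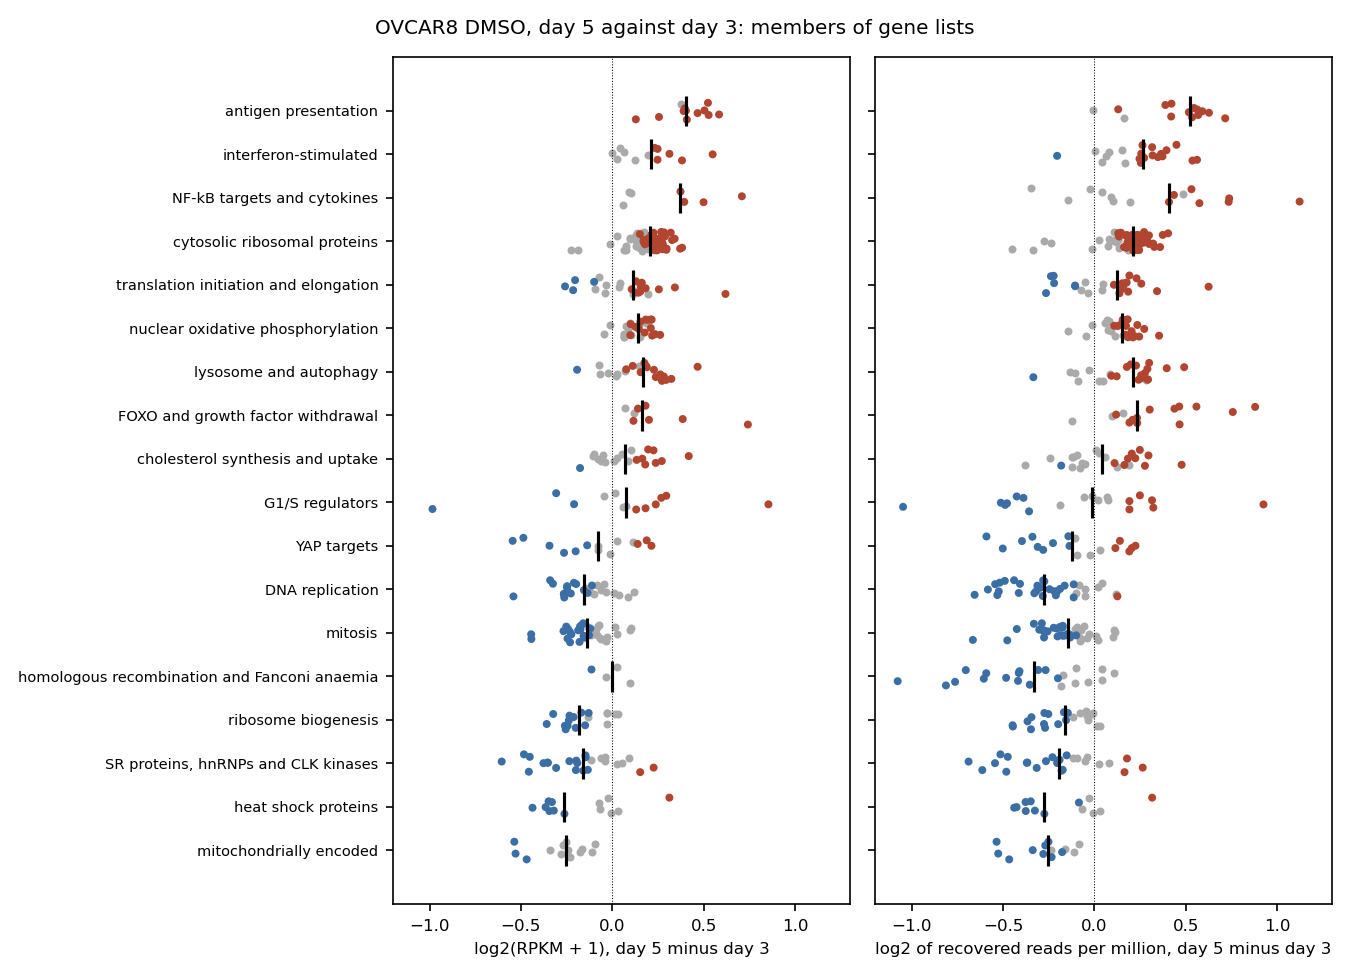
Members of 18 gene lists, each point a tested gene, with the log2 change from day 3 to day 5 in RPKM on the left and in recovered reads on the right, coloured where past an adjusted p of 0.05 and with a bar at the median. Antigen presentation lies highest at a median of 0.41 in RPKM. Homologous recombination has a median of -0.33 in the right panel, with 22 genes tested, and of -0.004 in the left one, with 4.

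The machinery of protein synthesis split by component. Of 67 cytosolic ribosomal protein genes tested, 36 rose and 0 fell, against 20.7% and 15.9% over all genes, with a median of 0.21 log2. RPL13 of the large subunit had 214 and 211 RPKM at day 5, against 173 and 172 RPKM at day 3. RPL28 rose 1.32-fold, and RPS9 of the small subunit rose 1.2-fold. These genes together took 4.57% and 4.32% of the reads at day 5, against 3.87% and 3.85% at day 3. Many have processed copies in the genome that could share reads. Over all tested genes the log2 change followed transcript length, with medians of 0.07, 0.05, 0.005 and -0.05 from the shortest to the longest quartile, and GC content, with -0.04, 0.01, 0.03 and 0.08 from the lowest to the highest quartile. Once GC content and gene span had been corrected for in every library, the median of the ribosomal protein genes was 0.16 log2, with 34 higher and 1 lower. Of these 67, 22 rose without library A of day 3, and without both libraries highest in ribosomal RNA 6 rose. The part of transcript length in the rise was not tested.

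Translation factors showed 11 of 23 higher and 4 lower, against 20.7% and 15.9% over all genes. These counts were 5 and 2 without library A of day 3, and 2 and 0 without both libraries highest in ribosomal RNA. EIF4A2, a helicase of translation initiation, had 110 and 102 RPKM at day 5, against 68.8 and 68 RPKM at day 3 (log2 change 0.62 ± 0.050, limma adjusted p = 0.00109). EEF1A1 and EEF2, the elongation factors, rose 1.27-fold and 1.19-fold, and EIF4G2, a scaffold of initiation, fell to 0.832-fold. Ribosome biogenesis, which builds the ribosome in the nucleolus, had 12 of 18 genes lower and 0 higher, with a median of -0.185 log2. MRTO4, a factor of the large subunit, had 6.94 and 6.76 RPKM at day 5, against 8.78 and 8.87 RPKM at day 3. TCOF1, which serves the transcription of ribosomal DNA, fell to 0.735-fold, and NCL, nucleolin, to 0.84-fold. Of these 18 genes, 7 fell without library A of day 3, and without both libraries 2 did.

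Nuclear and mitochondrial genes of the respiratory chain had medians on opposite sides of 0. Of 29 nuclear oxidative phosphorylation genes tested, 15 rose and 0 fell, against 20.7% and 15.9% over all genes. Their median was 0.14 log2, and 0.10 log2 after the correction for GC content and gene span. CYC1, cytochrome c1, had 201 and 197 RPKM at day 5, against 170 and 168 RPKM at day 3. NDUFS8, a subunit of complex I, rose 1.21-fold. Without library A of day 3, 5 of the 29 rose, and without both libraries 0 rose. Of 13 mitochondrially encoded genes 3 fell and 0 rose, or 0 and 0 without both libraries, with a median of -0.25 log2. In 12 of the 13 both day 5 libraries lay below both day 3 libraries, as in 2019 of all 6328 genes tested. MT-ND2, a subunit of complex I, had 274 and 305 RPKM at day 5, against 431 and 409 RPKM at day 3 (log2 change -0.54 ± 0.103, limma adjusted p = 0.0104). MT-CYB and MT-CO3, of complexes III and IV, fell to 0.695-fold and 0.724-fold. MT-TL1, a mitochondrial tRNA gene outside the list of 13, had 6.59 and 8.31 RPKM at day 5, against 14.8 and 19.3 RPKM at day 3. The calls of MT-ND2, MT-CYB and MT-CO3 were lost without library A of day 3 or library A of day 5, those of MT-CYB and MT-CO3 also without library B of day 3, and that of MT-TL1 when any of the 4 libraries was left out. The mitochondrial share of reads was 0.83% and 0.92% at day 5, against 1.01% and 1% at day 3.

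RNA-binding proteins of splicing were among the larger falls. Of 25 SR protein, hnRNP and CLK kinase genes tested, 16 fell and 2 rose, with a median of -0.16 log2, and 7 fell and 0 rose without the libraries highest in ribosomal RNA. HNRNPM, a splicing repressor and activator, had 5.78 and 5.7 RPKM at day 5, against 9.21 and 9.3 RPKM at day 3 (log2 change -0.60 ± 0.029, limma adjusted p = 0.000442). SFPQ, a paraspeckle protein outside that list, had 16 and 16.5 RPKM at day 5, against 26.2 and 25.4 RPKM at day 3 (-0.63 ± 0.034). HNRNPH1 fell to 0.716-fold, HNRNPD to 0.774-fold and SRSF3 to 0.776-fold. Core spliceosome genes had 4 of 27 higher and 7 lower, against 20.7% and 15.9% over all genes, but 1 higher and 2 lower without library A of day 3, and 0 higher and 1 lower without both libraries. Of 10 genes of the PRMT5 methylosome and its relatives 4 fell and 0 rose, and 0 were called without library A of day 3 or without both libraries. PRMT5, the target of the drug used elsewhere in the study, had 5.1 and 5.22 RPKM at day 5, against 5.04 and 4.99 RPKM at day 3 and did not pass (adjusted p = 0.293). WDR77, its obligate partner, had 3.96 and 3.52 RPKM at day 5, against 5.08 and 4.68 RPKM at day 3 (0.767-fold), a call that was lost without library A of day 3.

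Of 22 lysosome and autophagy genes 14 rose and 1 fell, against 20.7% and 15.9% over all genes, with a median of 0.17 log2. Of these, 8 rose and 0 fell without library A of day 3, and without both libraries highest in ribosomal RNA 4 rose and 0 fell. CTSB, the protease cathepsin B, had 23.3 and 22.8 RPKM at day 5, against 16.1 and 16.7 RPKM at day 3 (log2 change 0.47 ± 0.030, limma adjusted p = 0.00076). PSAP, the precursor of the saposins, rose 1.22-fold and GUSB, a lysosomal hydrolase, 1.32-fold. Genes known from growth factor withdrawal and FOXO rose in 6 of 8 cases and fell in 0, where 20.7% of all genes rose, and by reads rose in 12 of 15, where 18.8% of all genes rose. YPEL3, a gene linked to growth arrest, had 7.31 and 7.9 RPKM at day 5, against 4.18 and 4.11 RPKM at day 3 (0.74 ± 0.045). PIK3IP1, an inhibitor of PI3 kinase, had 3.54 and 3.18 CPM at day 5, against 1.96 and 1.98 CPM at day 3. In RPKM 2 of the 8 rose without library A of day 3, and 2 without both libraries.

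Of 7 iron genes tested 3 rose and 2 fell, or 1 and 1 without the libraries highest in ribosomal RNA. Over all genes 20.7% rose and 15.9% fell. TFRC, the transferrin receptor that brings iron in, had 1.34 and 1.29 RPKM at day 5, against 2.36 and 2.32 RPKM at day 3 (log2 change -0.53 ± 0.026, limma adjusted p = 0.000442). FTL, the light chain of the iron store ferritin, had 753 and 768 RPKM at day 5, against 568 RPKM in both day 3 libraries (0.42 ± 0.041). FTH1, the heavy chain, rose 1.16-fold, a call that was lost without library A or B of day 3, and both ferritin genes have processed copies that could share reads. Heat shock proteins fell in 7 of 13 cases and rose in 1, with a median of -0.26 log2, while 7 fell and 0 rose without library A of day 3, and 5 fell and 0 rose without both libraries. In both of these fits fewer genes were called over all genes as well. HSPA8, the constitutive HSP70, had 136 and 140 RPKM at day 5, against 190 and 183 RPKM at day 3. DNAJB1, a cochaperone, and HSPH1, an HSP110, fell to 0.746-fold and 0.77-fold.

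Lipid and amino acid genes moved in both directions, and counts in brackets are those without both libraries highest in ribosomal RNA. Of 20 cholesterol genes 8 rose and 1 fell, against 20.7% and 15.9% over all genes, with a median of 0.07 log2, but 5 rose and 0 fell without library A of day 3, and 2 rose and 0 fell without both. TM7SF2, a sterol reductase, rose 1.38-fold, and HMGCS1, the entry enzyme of the pathway, was at 0.957-fold and did not pass. Of 7 fatty acid synthesis genes 0 rose and 2 fell (0 and 0 without both). In the ATF4 and amino acid response 2 of 16 rose and 5 fell (2 and 3 without both), with SLC7A5, the large neutral amino acid transporter, at 3.53 and 3.88 RPKM at day 5, against 5.46 and 5.3 RPKM at day 3. DDIT4, an ATF4 and stress target that restrains mTOR, was at 0.94-fold with overlapping libraries. Unfolded protein response genes had 3 of 18 higher and 4 lower (1 and 1 without both), and XBP1, a factor of that response, rose 1.22-fold. Of 22 proteasome genes 9 fell and 1 rose, but 2 fell without library A of day 3 and 0 were called without both. The histone list had 5 of 14 higher and 2 lower (4 and 0 without both), with the linker histone gene H1F0 at 1.27-fold and HIST3H2A at 1.68-fold, whose reads may be shared with related copies. Of the other lists, 4 of 12 NRF2 genes rose and 1 fell (2 and 0 without both), and 3 of 14 snoRNA host genes rose and 3 fell (1 and 1). Among aminoacyl-tRNA synthetases 2 of 18 rose and 2 fell (1 and 0 without both), and among cytoskeleton genes 4 of 24 rose and 4 fell (0 and 1). The epithelial list had 2 of 12 higher and 1 lower (2 and 1 without both), and 1 of 6 metallothionein and zinc genes rose and 2 fell (0 and 0). In the last lists 1 of 5 S100A genes rose (0 without both), and of 4 nuclear-retained RNAs 2 fell (1 without both).

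Recovered reads brought out 1851 called genes that could not be tested in RPKM. C3, the central complement component, had 8.12 and 7.02 CPM at day 5, against 2.53 and 2.9 CPM at day 3 (2.79-fold). GBP2, an interferon-induced GTPase, had 11.9 and 12.3 CPM at day 5, against 4.45 and 4.92 CPM at day 3 (2.59-fold). DBP, an output gene of the circadian clock that was also tested in RPKM, had 18.1 and 19.3 CPM at day 5, against 7.82 and 8.24 CPM at day 3 (2.33-fold). For all of them the lower day 5 library exceeded the higher day 3 library by more than the distance within a group. The rule for named genes already required no overlap of the days. ANKRD2, a relative of ANKRD1, had 3.54 and 2.95 CPM at day 5, against 7.35 and 7.1 CPM at day 3. NEAT1, the scaffold RNA of paraspeckles, had 16.5 and 15.5 CPM at day 5, against 24.3 and 24.6 CPM at day 3 (0.655-fold), whereas MALAT1, another nuclear RNA, had 6.78 and 6.79 RPKM at day 5, against 7.91 and 8.85 RPKM at day 3 and did not pass (adjusted p = 0.466).

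The same days under DMSO in BT549 gave fewer calls, with 668 (10.7%) of 6249 genes higher and 376 (6.02%) lower. Of the genes tested in both lines, 536 were called in the same direction in both, which is 27.2% of the OVCAR8 calls and 62.5% of the BT549 calls, and 19 were called in opposite directions. TXNIP, CTSB, CDKN1C and YPEL3 rose in BT549 also, with log2 changes of 0.87, 0.61, 0.86 and 0.51. CCND1, FOSL1, THBS1, MKI67 and CDC6 fell there, with -0.41, -0.60, -0.61, -0.35 and -0.32. By list, DNA replication had 15 of 26 lower in OVCAR8 and 13 of 24 in BT549, and ribosome biogenesis had 12 of 18 lower in OVCAR8 and 11 of 18 in BT549. Over all genes 15.9% fell in OVCAR8 and 6.02% in BT549. The vehicle time change differed between the lines, by a test of the difference, at 122 genes with a higher change in OVCAR8 (2.27% of 5370 tested) and 146 with a lower one (2.72%). Together these were 268 genes, against 114 to 143 when any DMSO library of OVCAR8 was left out, 121 and 125 without library A or B of BT549 at day 5, and 444 without library A of BT549 at day 3.

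Among the genes with the largest difference, NFKBIA changed by 0.50 ± 0.066 log2 in OVCAR8 and by -0.19 log2 in BT549, where it did not pass (difference 0.69, limma adjusted p = 0.00379). Of 5 NF-kB genes tested in both lines 4 had a higher change in OVCAR8. Over all genes 2.27% had a higher change there and 2.72% a lower one. In BT549 the NF-kB list had 1 of 11 higher and 3 lower. BHLHE40, a repressor of the clock and of growth, changed by 0.54 log2 in OVCAR8 and by -0.21 log2 in BT549 (difference 0.74). CEBPD changed by 1.02 log2 in OVCAR8 and by 0.35 log2 in BT549 (difference 0.67). TXNIP, although higher in both lines, changed more in OVCAR8 (difference 0.66). Without both libraries highest in ribosomal RNA the differences of CEBPD and TXNIP were 0.61 and 0.57 and no longer passed. That of CEBPD was also lost without any 1 DMSO library of OVCAR8, without library B of BT549 at day 3 or without library A of BT549 at day 5. CCND1, lower in both, changed more in OVCAR8 (difference -0.58). DHCR7, the last enzyme of cholesterol synthesis, changed by 0.16 log2 in OVCAR8 and by -0.63 log2 in BT549, and 6 of 19 cholesterol genes had a higher change in OVCAR8. TGFBI and IGFBP4, a matrix protein and a binding protein of insulin-like growth factors, changed by -0.004 and 0.14 log2 in OVCAR8 and by 0.70 and 0.83 log2 in BT549, and 7 of 17 matrix genes had a lower change in OVCAR8.

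Under EPZ015666 the same days in OVCAR8 gave 431 (6.81%) of 6328 genes higher and 709 (11.2%) lower. Of the genes called under DMSO, 669 were called in the same direction under the drug, which is 28.8% of the DMSO calls and 58.7% of the EPZ015666 calls, and 50 were called in opposite directions. DNA replication had 15 of 26 genes lower under DMSO and 24 of 26 under EPZ015666, and antigen presentation had 11 of 12 higher under DMSO and 8 of 12 under EPZ015666. Ribosomal proteins had 36 of 67 higher under DMSO and 2 of 67 under EPZ015666, where their median was -0.02 log2. Over all genes 20.7% rose and 15.9% fell under DMSO. A test of the difference called 326 genes (5.15%) with a higher change under DMSO and 146 (2.31%) with a lower one. After the correction for GC content and gene span the split was 88 higher and 106 lower, and by recovered reads it was 933 higher and 1023 lower. These calls rested on all 8 libraries, since 0 to 6 genes were called when any of them was left out and 0 without both libraries highest in ribosomal RNA.

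CEBPD changed by 1.02 log2 under DMSO and by 0.29 log2 under EPZ015666 (difference 0.73 ± 0.071, limma adjusted p = 0.0257). CDKN1C had 16.5 and 16.3 RPKM at day 5, against 8.78 and 8.46 RPKM at day 3 under DMSO, and 7.55 and 6.96 RPKM at day 5, against 6.72 and 6.35 RPKM at day 3 under EPZ015666 (difference 0.72). SOCS3 changed by 0.98 log2 under DMSO and by 0.41 log2 under EPZ015666. On the lower side, AHNAK, a giant scaffold protein, changed by -0.46 log2 under DMSO and by 0.08 log2 under EPZ015666, and HSPA5, the chaperone BiP, by -0.13 log2 under DMSO and by 0.30 log2 under EPZ015666. PHLDA1 fell under DMSO and did not pass under EPZ015666, at 0.09 log2 (difference -0.58, limma adjusted p = 0.0257), while TXNIP, IL6, IL32 and HLA-B rose and CCND1, KRT7 and SFPQ fell under both.

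**Figure D4:**
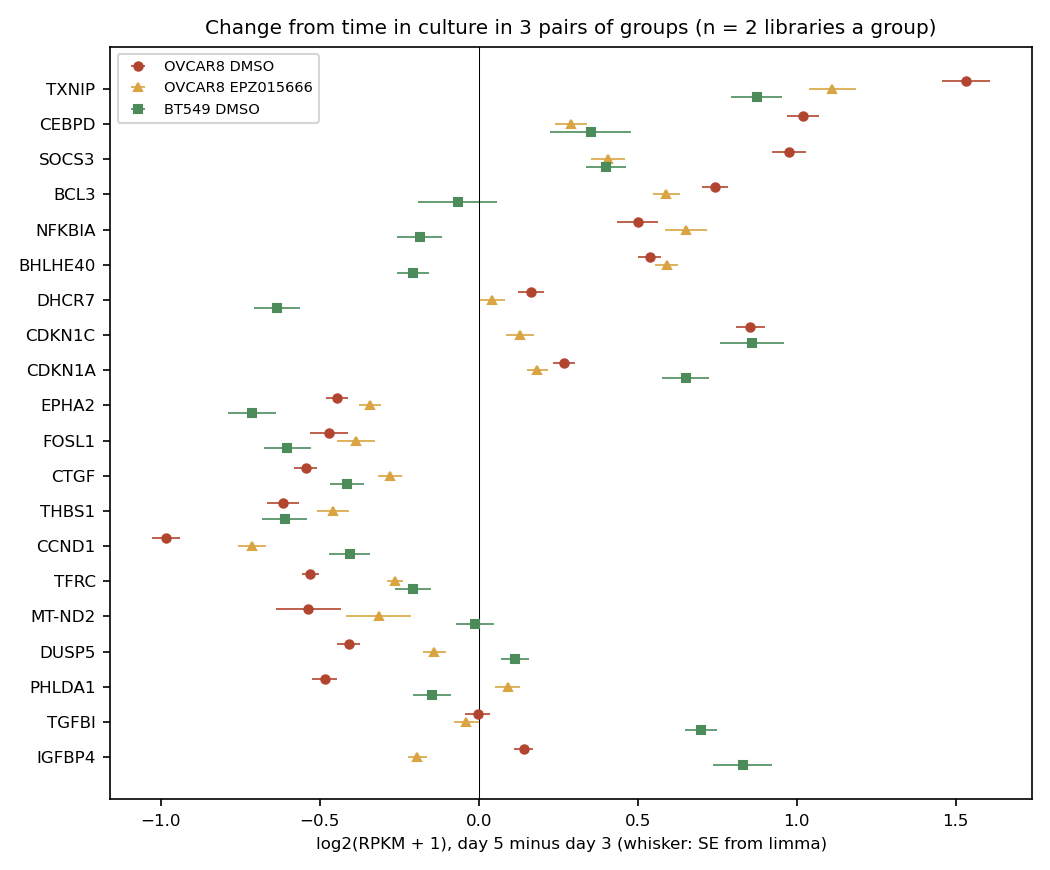
Log2 change of 20 genes from day 3 to day 5 in OVCAR8 under DMSO (circles), OVCAR8 under EPZ015666 (triangles) and BT549 under DMSO (squares), with whiskers for the SE from limma and 2 libraries a group. TXNIP lies above 0.8 in all 3 cultures, CEBPD stands apart in OVCAR8 under DMSO at 1.02, and NFKBIA and BHLHE40 lie below 0 in BT549 alone.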

How the data were processed

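Poly(A) RNA was sequenced with stranded libraries, per the labels' protocols. Per the submitters' processing notes, featureCounts and GRCh38 were used, while no aligner is named. RPKM values for 16591 genes were deposited by the authors, and match whole gene spans, introns included. Whole reads were recovered from them: 100% of the values under 1000 reads in every library lay within 0.02 of a whole number. The 24 libraries held 23.75 M to 44.94 M recovered reads. These reads are not unique molecules, and their number covers counting error only.

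Changes were tested with limma 3.58.1 in R 4.3.3 on log2(RPKM + 1), in 1 fit over the 8 OVCAR8 libraries, or 16 libraries with BT549, for genes with a mean of at least 1 RPKM. P-values were adjusted over all tested genes, with a threshold of 0.05. Recovered reads were tested with limma-voom at a mean of at least 1 CPM. The scripts were tested on simulated data. Lengths and GC content for a lowess correction of each library came from the annotation. The members and the 41 gene lists were chosen with earlier results of these data known, and the lists of ERK output and STAT3 pathway genes were added after their values were seen. Named genes were the 12 largest changes each way in RPKM and the 8 largest each way by reads, among called genes with no overlap of the days, no clone-based symbol and at least 5 RPKM or CPM in the higher day, the 8 largest called each way in each difference at a mean of at least 5 RPKM, up to 4 members per list by adjusted p, and some key genes, of which the text gives a part, and some are not reported here. Other genes of the text were chosen after their values were seen. Replicates differed by more than counting noise. Over the OVCAR8 groups the median chi-square was 1.87 to 3.51 times the median for counting noise alone. Under DMSO it was 2.66 times at day 5 and 1.87 times at day 3. The letters A and B did not pair the DMSO libraries, with a correlation of their deviations of 0.08 between both DMSO groups. It was -0.5 between DMSO at day 3 and EPZ015666 at day 5, the groups that hold the libraries highest in ribosomal RNA. Between other pairs of OVCAR8 groups it lay between -0.15 and -0.05. Alternatives were another pseudocount, other filters, scalings and fits, a replicate block, recovered reads, a correction for GC content and span, and leaving out each library.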

Additional observations from a re-analysis of the deposited data

Results flagged for a closer look

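The change from day 3 to day 5 under DMSO differed between OVCAR8 and BT549 at 268 genes by a test of the difference. The differences below are the log2 change in OVCAR8 minus that in BT549. Among called genes with a mean of at least 5 RPKM, the largest positive ones were FAM84B at 0.93, DHCR7 at 0.80, BHLHE40 at 0.74, NFKBIA at 0.685, CEBPD at 0.67, TXNIP at 0.66, ETS2 at 0.61 and FSTL3 at 0.60. By the same minimum, large negative ones were SEPT2P1 at -0.98, TGFBI at -0.70, IGFBP4 at -0.69, TNNT1 at -0.60, CCND1 at -0.58, MT-ND2 at -0.52 and TUBA1A at -0.52. SEPT2P1 is a processed copy, and its reads may come from its parent gene.

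Within OVCAR8 the change differed between DMSO and EPZ015666 at 472 genes, a count that fell to 0 to 6 when any library of the line was left out. The differences below are the log2 change under DMSO minus that under EPZ015666. Among called genes with a mean of at least 5 RPKM, the largest positive ones were CEBPD at 0.73, CDKN1C at 0.72, NAPRT at 0.64, BCAM at 0.59, ID1 at 0.57, SOCS3 at 0.57, RPS24P8 at 0.55 and IFITM2 at 0.50. By the same minimum, the largest negative ones were AHNAK at -0.55, MAP1B at -0.445, HSPA5 at -0.425, PURB at -0.42, ADAMTS1 at -0.40, EIF5 at -0.39, SRSF8 at -0.37 and SLC38A2 at -0.36. RPS24P8 is a processed copy of a ribosomal protein gene.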

How the results depend on the processing

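The vehicle counts of 1313 genes higher and 1009 lower were 670 and 352 with a mean of at least 5 RPKM, 2347 and 2279 by recovered reads, where more genes were tested, and 361 and 188 without the 2 libraries highest in ribosomal RNA, an alternative chosen after seeing the data. Leaving out 1 library at a time gave 690 to 1336 higher and 450 to 974 lower. With a replicate block, although the letters share only a name, the counts were 1147 and 840.

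The 268 differences between OVCAR8 and BT549 were 983 with no filter, 74 with at least 5 RPKM, 466 in a fit over all 24 libraries, 736 by recovered reads, 546 after the GC content and gene span correction and 63 without both libraries, and 114 to 444 when 1 library was left out. The replicate block gave 198.

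The 472 differences between DMSO and EPZ015666 were 149 with no filter, 5 with the replicate block, 832 over all 24 libraries, 1956 by recovered reads, 194 after the GC content and gene span correction, 0 without both libraries and 0 to 6 when 1 library was left out. The causes were not tested.

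Of 95 called genes of the text, 1710 of 1783 recomputed changes kept direction and call, 73 lost the call and 0 changed sign, and 25 of the losses came without both libraries. Several alternatives, such as other filters, a fit over all 24 libraries or leaving out an EPZ015666 library, cannot alter a gene's log2 change. The called genes were also picked largely by size of change or adjusted p, so keeping sign and call was partly fixed in advance. Some changes that did not pass the test did change sign. After the GC content and gene span correction PRMT5 was at -0.00862, KRT18 at -0.0388 and JAK1 at 0.0185. Without library A of day 3, and without both libraries, DDIT4 was at 0.00363 and TGFBI at 0.00562. Leaving out 1 library at a time gave -0.0473 to 0.000219 for JAK1, -0.156 to 0.00363 for DDIT4 and -0.0474 to 0.0402 for TGFBI. Of 798 recomputed list medians 24 changed sign, and 0 of the 342 of the 18 lists whose median was at least 0.1 in size. Many of these medians repeat the same estimate, and a median farther from 0 is less likely to change sign, so these counts do not measure stability. With 2 libraries a group, and RPKM over gene spans, small changes of low genes were not detectable.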
